A study of Mus musculus with 12 samples.

Results

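Integrins are the receptors by which cells hold on to the matrix around them, and each receptor is a pair of 1 alpha and 1 beta subunit. The alpha subunit largely decides which ligand is bound, and the short tail of the beta subunit recruits talin and kindlin, which switch the receptor to its active form and tie it to actin. In epithelium, integrins that bind laminin anchor cells to the basement membrane, and changes of integrin repertoire are well known in invasion and metastasis. The 10 subunits described here are the alpha genes Itga1, Itga2, Itga3, Itga5, Itga6 and Itgav and the beta genes Itgb1, Itgb3, Itgb4 and Itgb5. They were chosen as a named list by no rule on their values, but with earlier results of these data known. All 10 were found among 28112 features of the deposited table.

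The cells were 3 mouse small cell lung cancer lines of genotype Trp53-/-;Rb1-/-, cultured as spheres that do not attach. Lines 16T and KP1, both with a high Nfib background, carried a control shRNA (shLuc) or an shRNA against Nfib (sh2), and line KP22, with a low Nfib background, carried an empty expression vector or Nfib cDNA. There were 6 groups of 2 samples and 12 samples in all, and nothing in the labels says that the samples of a group were separate cultures, so p-values measure the spread between these samples only. Nfib encodes nuclear factor I B, a DNA-binding protein of the NFI family, and the question is how integrin transcripts differ when its level is lowered or raised. Each comparison comes from a single line with a single shRNA or cDNA vector.

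The files used here give 1 mean normalized count per gene over all libraries, and a log2 fold change with its standard error (SE) for each line. Values per sample, the total count of each library and the level within each line are not given there, so no overlap between samples can be described. The words rose and fell are kept for an adjusted p under the threshold of 0.05, and ± is the SE. Nfib itself had, in the authors' deposited table, log2 fold changes of -1.08 ± 0.035 (16T), -1.32 ± 0.035 (KP1) and 1.80 ± 0.036 (KP22), from which the direction of each heading was taken. The neuroendocrine label of small cell lung cancer was matched by high means of Chga (25383) and Insm1 (15922) in the authors' deposited table. These markers changed too: of 10, 5 rose and 3 fell in 16T, 7 rose and 3 fell in KP1, and 2 rose and 6 fell in KP22. Of all tested genes, 45.3% (16T), 37.2% (KP1) and 38.4% (KP22) rose or fell. The markers all had means of at least 5290, where SEs are small and small changes pass the threshold. Chga fell in all 3 lines (-0.39 ± 0.036, -0.58 ± 0.036 and -1.04 ± 0.037), and Scg2, another secretory granule gene, rose in 16T (2.12 ± 0.050) and KP1 (0.91 ± 0.049) and fell in KP22 (-3.23 ± 0.089), per the authors' deposited table. Their part in the integrin results was not tested.

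In bulk RNA, fewer cells of a type and less RNA per cell cannot be told apart. Transcripts of 3 listed subunits stood far above the other 7. Per kilobase of exon, the mean normalized count computed from the authors' deposited table was 3186 for Itgb1, the beta partner of most alpha subunits. It was 894 for Itga3 and 836 for Itga6, the alpha chains of laminin receptors. Itgb4, the beta chain that pairs with Itga6 in hemidesmosomes, was at 40.1 per kilobase, computed likewise from the authors' deposited table. The next listed subunits were Itgb5 (14.1), Itga1 (9.31), Itga2 (5.36) and Itgb3 (4.20), also per kilobase from the authors' deposited table. Itgav and Itga5, alpha chains of receptors for vitronectin and fibronectin, were lowest, at 0.664 and 0.423 per kilobase and means of 4.68 and 1.81 in the authors' deposited table. The means carry no spread, so neighbours in this order, such as Itga3 and Itga6, cannot be told apart, and whether the authors' normalization already adjusted for length is not stated in the sources used here. Itga10, a collagen receptor chain outside the list, ranked next after Itga6, at 114 per kilobase.

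**Figure D1:**
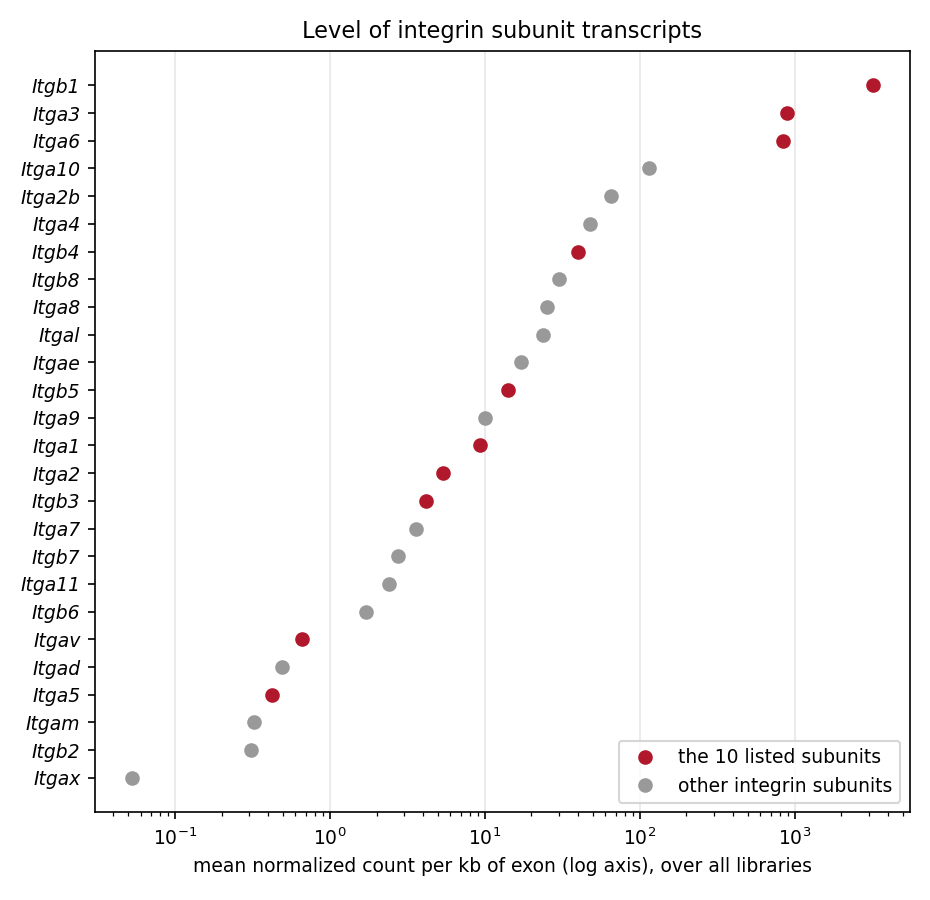
Mean normalized count per kilobase of exon (horizontal log axis) for 26 integrin subunits, ordered by level, with listed subunits in red and other subunits in gray. Itgb1 (3186), Itga3 (894) and Itga6 (836) stand above all others, and Itga10 follows at 114.

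The genes lie on 6 chromosomes of the mm10 build. By GENCODE M21, Itgb1 is on chromosome 8 (128685654 to 128733200), Itga6 and Itgav are on chromosome 2 (71745616 to 71858416 and 83724397 to 83806916), and Itga5 is on chromosome 15 (103344286 to 103366763). Itga3, Itgb3 and Itgb4 are on chromosome 11 (95044474 to 95076801, 104608000 to 104670476 and 115974709 to 116008412), and Itgb5 is on chromosome 16 (33829665 to 33949338). Itga2 and Itga1 are neighbours on the minus strand of chromosome 13 (114833081 to 114932100 and 114953096 to 115101964), 20995 bases apart. The deposited exon list counted between 14 intervals (Itgb5) and 38 intervals (Itgb4) per listed gene.

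The RefSeq promoter table (GRCm38.p6) held 7 of the 10 genes in 8 windows. The 250 bases before the start are shown for Itgb1, the most abundant subunit and the sole listed one called in every line, and for Itga1 and Itgb5, which changed most in opposite directions in KP22. Capitals mark the NFI half-site TTGGC on either strand, which reads GCCAA where it lies on the other strand.
Itgb1, plus strand, chr8:128685404-128685653: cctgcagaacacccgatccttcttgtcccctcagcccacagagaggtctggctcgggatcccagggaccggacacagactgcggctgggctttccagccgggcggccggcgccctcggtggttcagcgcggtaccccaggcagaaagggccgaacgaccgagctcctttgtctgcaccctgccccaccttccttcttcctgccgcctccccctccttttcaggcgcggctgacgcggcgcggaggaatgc
Itga1, minus strand, chr13:115101965-115102214: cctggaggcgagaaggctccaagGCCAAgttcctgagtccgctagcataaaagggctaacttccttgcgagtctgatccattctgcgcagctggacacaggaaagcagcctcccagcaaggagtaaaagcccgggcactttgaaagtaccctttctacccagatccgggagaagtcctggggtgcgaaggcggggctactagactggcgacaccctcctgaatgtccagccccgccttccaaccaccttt
Itgb5, plus strand, chr16:33829415-33829664: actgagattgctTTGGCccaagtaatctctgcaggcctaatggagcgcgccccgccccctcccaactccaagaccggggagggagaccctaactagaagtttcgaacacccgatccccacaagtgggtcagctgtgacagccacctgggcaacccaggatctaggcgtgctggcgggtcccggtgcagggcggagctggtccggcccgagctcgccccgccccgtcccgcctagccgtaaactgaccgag
These letters occur once each in the windows of Itga1 and Itgb5, beginning 227 and 238 bases before the start, and nowhere in that of Itgb1. Over the listed genes 3 of 8 windows held the half-site, and 41.5% of 32851 windows of the same length did, so the listed genes did not stand out. A match of letters is a description and does not show binding.

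Itga6 had the clearest response to the Nfib shRNA. Its log2 fold change in the authors' deposited table was -1.11 ± 0.069 in 16T (adjusted p = 1.19e-56) and -1.04 ± 0.063 in KP1 (adjusted p = 4.62e-59). These values correspond to 46.4% and 48.6% of the control level, computed from the authors' deposited table. In 16T and KP1 together, 149 of 14504 tested genes (1.03%) fell by at least 1 on the log2 scale in each line, and 9.89% fell in both by any amount. The fall was also called in both lines by the authors' second test, of a change beyond 0.5 (adjusted p = 7.13e-17 and 1.17e-15 in the authors' deposited table). With Nfib cDNA in KP22 the log2 fold change was 0.07 ± 0.063 in the authors' deposited table (adjusted p = 0.409), and its 95% interval runs from -0.05 to 0.20. Turned towards higher Nfib, the knockdown lines gave a mean of 1.07, and the KP22 effect was different from this by -1.001 ± 0.079 (adjusted p = 2.87e-35). The knockdown effect did not pass a test of difference between 16T and KP1 (-0.07 ± 0.093, interval -0.25 to 0.11, adjusted p = 0.651).

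Itga3, the other abundant alpha chain for laminins, went the opposite way in both knockdown lines. It rose by 0.48 ± 0.060 in 16T (adjusted p = 1.07e-14) and by 0.34 ± 0.059 in KP1 (adjusted p = 1.43e-07) in the authors' deposited table. In KP22 with Nfib cDNA it had -0.11 ± 0.059 in the authors' deposited table, which was not called (adjusted p = 0.136); recentred on the median gene it was -0.16 and called (adjusted p = 0.0242). The rises were thus 1.40-fold and 1.26-fold (8.68% of tested genes rose in both lines), and neither passed the authors' test against 0.5. Itga3 and Itga6 share the partner Itgb1; their difference was not tested, since both are read from the same libraries.

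Itgb1 was the sole listed subunit called in all 3 lines. It rose by 0.37 ± 0.041 in 16T (adjusted p = 1.65e-18) and by 0.13 ± 0.041 in KP1 (adjusted p = 0.00531), and fell by 0.60 ± 0.041 in KP22 (adjusted p = 4.09e-46), in the authors' deposited table. In linear terms this is 130% and 110% of the control in the knockdown lines and 66.0% of the empty vector level in KP22, computed from the authors' deposited table. The rise in 16T exceeded that in KP1 by 0.24 ± 0.058 (adjusted p = 0.000265), and the fall in KP22 exceeded the reversed knockdown mean of -0.25 by 0.35 (SE 0.050, adjusted p = 9.17e-11). When 6 degrees of freedom were assumed and a t distribution used, the call in KP1 was lost (adjusted p = 0.0772). None of the 3 changes passed the authors' test against 0.5.

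Itgb4, which binds laminin as the partner of Itga6, fell with Nfib cDNA. Its log2 fold change in KP22 was -1.80 ± 0.28 in the authors' deposited table (adjusted p = 1.70e-09), a 3.49-fold lower level, and the authors' test against 0.5 called it too (adjusted p = 9.33e-05). It rose in KP1 (0.76 ± 0.20, adjusted p = 0.000909) and had 0.45 ± 0.24 in 16T (adjusted p = 0.116) in the authors' deposited table. The KP1 call was lost with a t distribution (adjusted p = 0.0504), and the 16T value became 0.49 with an adjusted p of 0.0496 when exons under the joined name of Itgb4 alone were added. Reads on an interval shared by Itgb4 and the neighbouring galactokinase gene Galk1 (mean 112) had 0.68 ± 0.28, 0.01 ± 0.26 and -0.46 ± 0.29 in 16T, KP1 and KP22 in the authors' deposited table, and cannot be given to either gene. The KP22 effect was lower than the reversed knockdown mean of -0.61 by 1.20 ± 0.32 (adjusted p = 0.000938). The Itgb4 transcript, which is 1 of the 2 chains of the hemidesmosome receptor, thus moved opposite to Itga6 in KP1, and in KP22 it moved where Itga6 had no call.

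**Figure D2:**
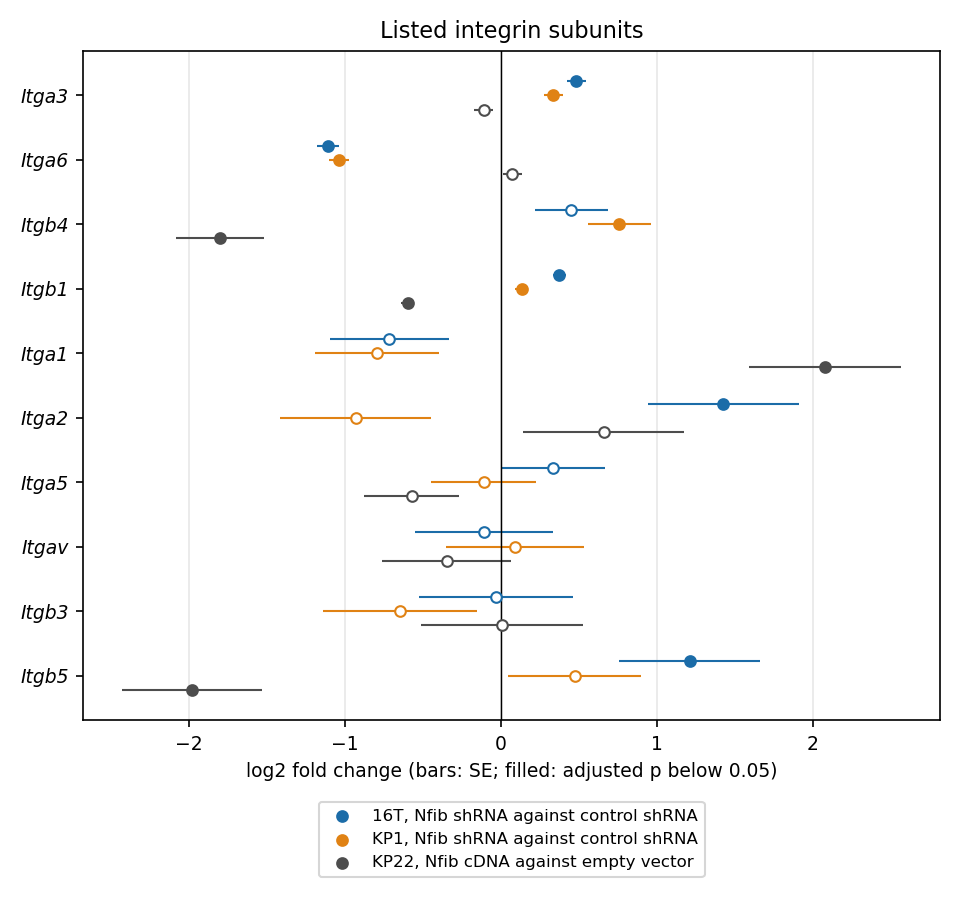
Log2 fold change (horizontal axis) of the 10 listed subunits in 16T (blue) and KP1 (orange) with Nfib shRNA and in KP22 (gray) with Nfib cDNA. Bars are SEs and filled points have an adjusted p below 0.05; Itga6 lies near -1 in both knockdown lines and near 0 in KP22, and Itgb1, Itgb4 and Itgb5 lie below 0 in KP22.

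The collagen-binding alpha chains were low transcripts with wide errors. Itga1 rose 4.22-fold in KP22 with Nfib cDNA (2.08 ± 0.49, adjusted p = 0.000117) in the authors' deposited table, and this passed the test against 0.5 as well (adjusted p = 0.020). In 16T and KP1 it had -0.72 ± 0.38 and -0.79 ± 0.40 in the authors' deposited table, neither of them called (adjusted p = 0.121 and 0.115). Averaged over the 3 lines and turned towards higher Nfib, Itga1 was higher by 1.20 ± 0.24 (adjusted p = 4.11e-06). Its KP22 effect exceeded the reversed knockdown mean of 0.76 by 1.32 ± 0.56 (adjusted p = 0.0497), a call lost with a t distribution (0.153), after recentring (0.0518) and without 16T (0.100).

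Itga2, beside Itga1 on chromosome 13, rose in 16T (1.43 ± 0.48, adjusted p = 0.00997) and had no call in KP1 (-0.93 ± 0.48, 0.131) or KP22 (0.66 ± 0.52, 0.359), per the authors' deposited table. The knockdown effect differed between 16T and KP1 by 2.36 ± 0.68 (adjusted p = 0.00318). With a t distribution neither the rise in 16T (adjusted p = 0.0794) nor this difference (0.0772) was called. The mean of Itga2 was 22.6 and that of Itga1 55.7 in the authors' deposited table.

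Of Itgav, Itga5, Itgb3 and Itgb5, chains of receptors for vitronectin and fibronectin, Itgb5, a partner of Itgav, was the sole one with a call. It rose in 16T (1.21 ± 0.45, adjusted p = 0.0203), had 0.47 ± 0.43 in KP1 (adjusted p = 0.446) and fell to 25.3% of the empty vector level in KP22 (-1.98 ± 0.45, adjusted p = 6.06e-05) in the authors' deposited table. The fall in KP22 passed the authors' test against 0.5 (adjusted p = 0.016 in the authors' deposited table), whereas the rise in 16T was lost with a t distribution (adjusted p = 0.101). With exons under the joined name of Itgb5 alone added, the values became 0.74 in 16T (adjusted p = 0.0419), 0.16 in KP1 (0.733) and -1.57 in KP22 (9.37e-07). Averaged over the lines towards higher Nfib, Itgb5 was lower, at -1.22 ± 0.26 (adjusted p = 6.75e-06). Of 10 fibroblast markers, 5 were tested in 16T and KP1 and 8 in KP22. Of all tested genes, 20% rose in 16T, 19.6% fell in KP1 and 18.8% fell in KP22. Of the tested fibroblast markers, 3 rose in 16T, 1 fell in KP1 and 2 fell in KP22. The most abundant, Pdgfra (mean 2220), rose in 16T (0.24 ± 0.077), fell in KP1 (-0.47 ± 0.070) and had -0.22 ± 0.25 in KP22 with no call, per the authors' deposited table. Dcn (mean 284) rose in 16T (0.61 ± 0.21) and had 0.08 ± 0.44 in KP22, and Pdgfrb (mean 73.2) rose in 16T (2.01 ± 0.38) and fell in KP22 (-1.21 ± 0.38), per the authors' deposited table. Col3a1 and Acta2 were listed at 0, and the part of these markers in the Itgb5 result was not tested.

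Itgb3, the beta chain of a vitronectin receptor found on platelets and osteoclasts, had no call. In the authors' deposited table its values were -0.03 ± 0.49 (16T), -0.65 ± 0.49 (KP1) and 0.01 ± 0.52 (KP22), so changes of about 1 in either direction lie within the 95% interval in 16T (-1.0 to 0.93) and KP22 (-1.01 to 1.03). Itgav and Itga5 had no adjusted p in 16T and KP1, where the lowest tested mean was 15.7, and no call in KP22 (-0.35 ± 0.41 and -0.57 ± 0.30 in the authors' deposited table). The 95% intervals in KP22 run from -1.16 to 0.46 for Itgav and from -1.17 to 0.02 for Itga5. The SE in KP22 was smaller for Itga5 (0.30, mean 1.81) than for Itgb3 (0.52, mean 24.3), although Itga5 had fewer counts. Fold changes at such low means look shrunken towards 0, so these intervals do not limit the unshrunken change.

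Over the list, 4 subunits rose and 1 fell of 8 tested in 16T, against 45.3% of all tested genes called there (20% higher, 25.3% lower). In KP1 3 rose and 1 fell of 8, against 37.2% called (17.6% higher, 19.6% lower), and in KP22 with cDNA 1 rose and 3 fell of 10, against 38.4% (19.5% higher, 18.8% lower), so the KP22 share was near that of all genes. Median log2 fold changes of the tested members were 0.41, -0.26 and -0.23, where those of all tested genes were -0.05, -0.02 and 0.04. The tested difference between 16T and KP1 was called for 2 of 8 members (29.4% of all genes; 14% higher, 15.5% lower), and that between KP22 and the reversed knockdown mean for 5 of 8 (36.7% of all genes; 17.7% higher, 19% lower). The average over the lines was called for 6 of 8 (52.9% of all genes; 29.2% higher, 23.7% lower): Itga1 and Itga6 were higher with more Nfib, and Itga3, Itgb1, Itgb4 and Itgb5 were lower. Itga6 had an average of 0.74 ± 0.038, with a KP22 value near 0.

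**Figure D3:**
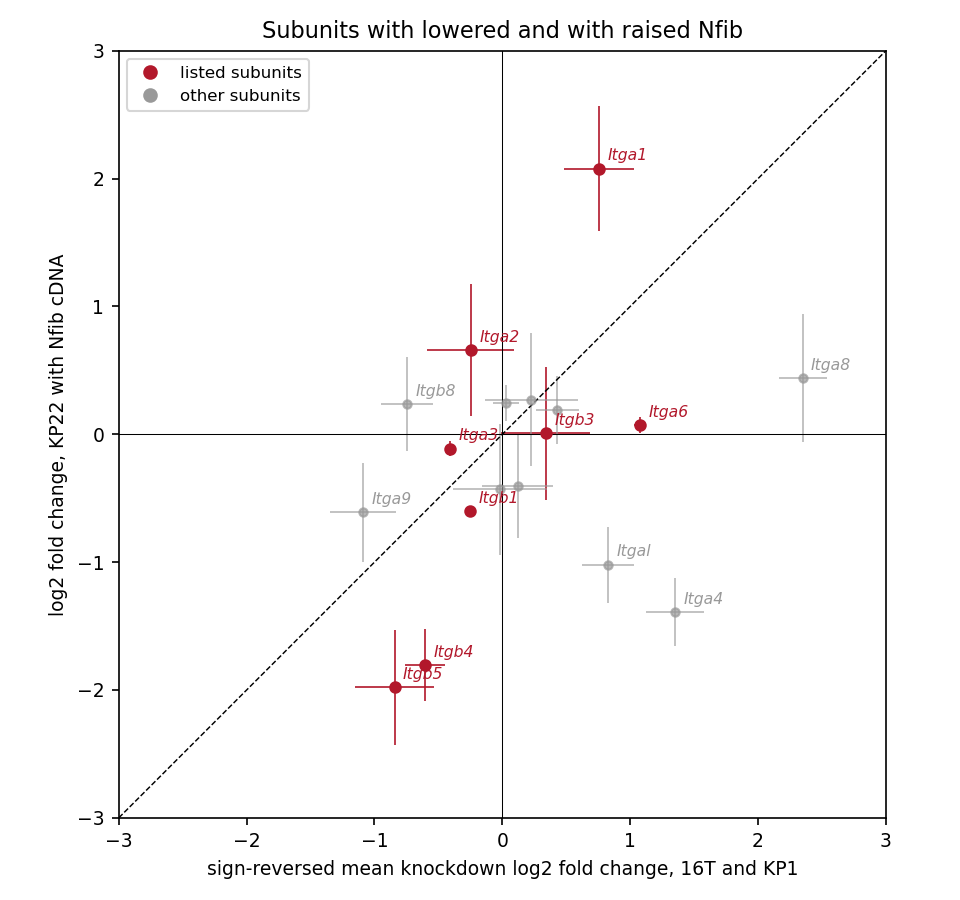
Mean knockdown log2 fold change of 16T and KP1 with its sign reversed (horizontal) against the log2 fold change in KP22 with Nfib cDNA (vertical), for 18 subunits with a mean of at least 10; bars are SEs, red points are listed subunits and the dashed line marks equal effects. Itga6 lies at 1.07 and 0.07, away from the line, and Itgb4 and Itgb5 lie at the lower left.

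The other 16 integrin subunits were measured as well, 10 of them with a mean of at least 10. Itga8, which pairs with Itgb1 and binds nephronectin, fell the most, by 1.92 ± 0.26 in 16T (adjusted p = 9.86e-13) and by 2.78 ± 0.28 in KP1 (adjusted p = 2.34e-22) in the authors' deposited table. In KP22 it had 0.44 ± 0.50 with no call (adjusted p = 0.562) in the authors' deposited table. Itga4, whose receptors bind VCAM1 and fibronectin, fell in every line of the authors' deposited table: -0.97 ± 0.37 (16T, adjusted p = 0.0249), -1.73 ± 0.26 (KP1, 3.12e-10) and -1.39 ± 0.26 (KP22, 1.11e-06). It therefore fell both with lowered and with raised Nfib, and the KP22 effect lay 2.74 ± 0.35 below the reversed knockdown mean (adjusted p = 6.09e-14). The 16T call of Itga4 was lost with a t distribution (adjusted p = 0.109). Itgal, the alpha chain of a leukocyte integrin, fell in 16T (-1.06 ± 0.27) and KP22 (-1.02 ± 0.30) and had -0.60 ± 0.29 in KP1 in the authors' deposited table, while its beta partner Itgb2 had a mean of 0.887 and the leukocyte marker Ptprc one of 1.38. The KP22 call of Itgal was lost with a t distribution (adjusted p = 0.0602).

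Itga9, a receptor chain for tenascin, rose in 16T (1.70 ± 0.35, adjusted p = 7.41e-06), and Itgb8, a partner of Itgav that binds latent TGF-beta, rose in KP1 (1.16 ± 0.29, adjusted p = 0.000348), in the authors' deposited table. Itga2b, the platelet alpha chain, fell in KP1 (-0.97 ± 0.24, adjusted p = 0.000372) in the authors' deposited table, and its knockdown effect differed between the lines (1.08 ± 0.34, adjusted p = 0.00733; 0.0944 with a t distribution). Itgb7, the beta partner of Itga4 and Itgae, fell in KP22 (-1.70 ± 0.48, adjusted p = 0.00156; 0.0524 with a t distribution) at a mean of 7.35 in the authors' deposited table. Itga10, the most abundant of these 16, had -0.07 ± 0.14, 0.02 ± 0.14 and 0.24 ± 0.14 in 16T, KP1 and KP22 in the authors' deposited table and no call. Of the 16, 1 rose and 3 fell of 8 tested in either knockdown line, and 0 rose and 3 fell of 14 tested in KP22, where 45.3% (16T), 37.2% (KP1) and 38.4% (KP22) of all tested genes were called.

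**Figure D4:**
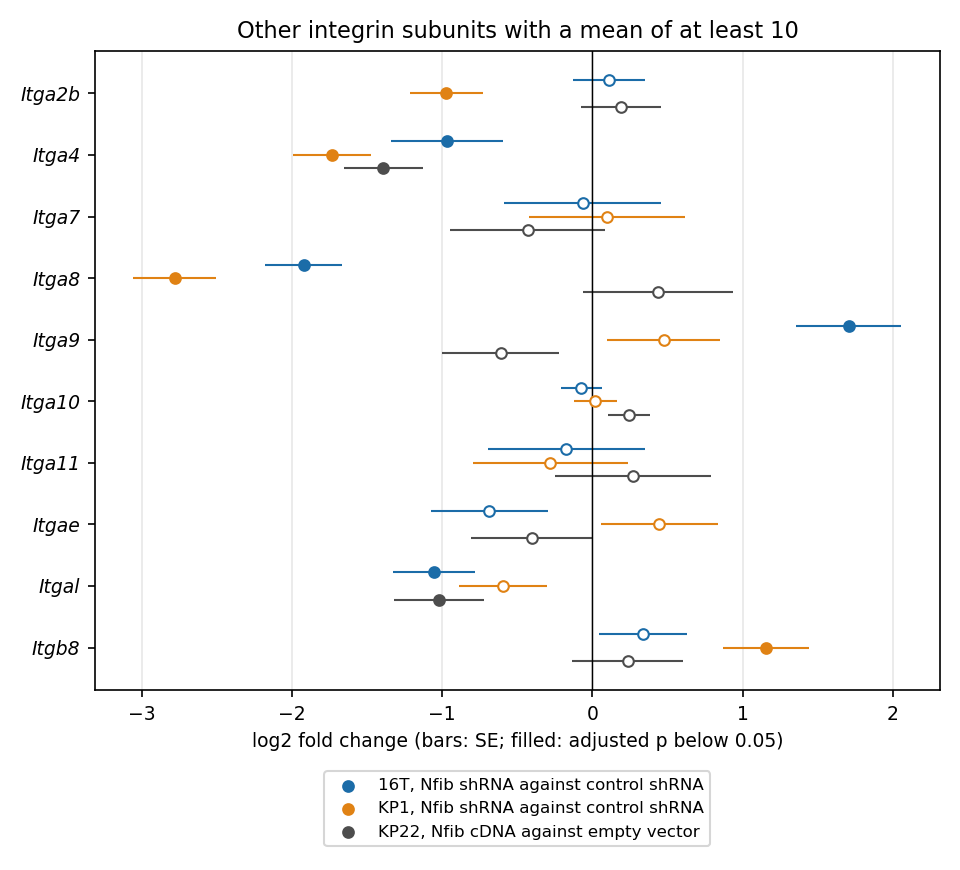
Log2 fold change (horizontal axis) of the 10 other integrin subunits with a mean of at least 10 in 16T (blue), KP1 (orange) and KP22 (gray); bars are SEs and filled points have an adjusted p below 0.05. Itga8 lies at -1.92 and -2.78 in the knockdown lines, and all 3 points of Itga4 lie below 0.

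Among ligands of these receptors, as among all genes, some rose and some fell. Of all tested genes 20% rose and 25.3% fell (16T), 17.6% rose and 19.6% fell (KP1), and 19.5% rose and 18.8% fell (KP22), and the counts of each list are to be read against these. Of 15 laminin and other basement membrane genes, 4 rose and 5 fell in 16T, 2 rose and 6 fell in KP1, and 2 rose and 3 fell in KP22, with medians of -0.14, -0.37 and 0.22 (all tested genes -0.05, -0.02 and 0.04). Lama5, which encodes the alpha chain of laminins that Itga3 and Itga6 receptors bind, was the most abundant of them (mean 12425 in the authors' deposited table). It fell in 16T (-0.25 ± 0.038) and KP1 (-0.81 ± 0.042) and rose in KP22 (1.06 ± 0.039) in the authors' deposited table. Lama4 fell in 16T (-1.56 ± 0.25) and KP1 (-0.89 ± 0.27), and Lamb2 rose there (0.73 ± 0.15 and 0.92 ± 0.15), in the authors' deposited table.

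Of 14 collagen genes, 5 were tested in the knockdown lines and 10 in KP22. In each knockdown line 1 rose and 2 fell, and in KP22 the counts were 2 and 2. The basement membrane collagens Col4a1 and Col4a2 fell in 16T (-0.48 ± 0.080 and -0.37 ± 0.081) and KP1 (-0.80 ± 0.080 and -0.83 ± 0.081) and rose in KP22 (0.94 ± 0.077 and 0.27 ± 0.078) in the authors' deposited table. Col6a1 did the reverse, with 2.04 ± 0.47, 2.06 ± 0.45 and -1.47 ± 0.49 in 16T, KP1 and KP22 in the authors' deposited table.

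**Figure D5:**
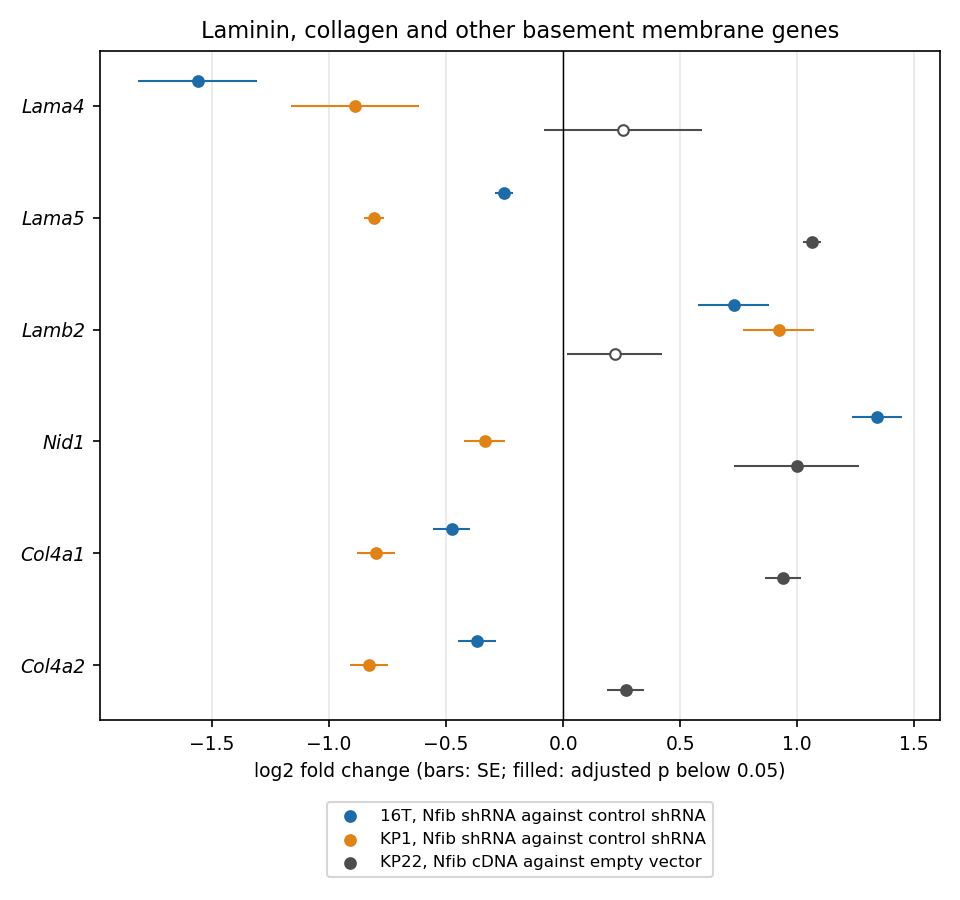
Log2 fold change (horizontal axis) of the basement membrane genes Lama4, Lama5, Lamb2, Nid1, Col4a1 and Col4a2 in 16T (blue), KP1 (orange) and KP22 (gray); bars are SEs and filled points have an adjusted p below 0.05. Lama5, Col4a1 and Col4a2 lie below 0 in both knockdown lines and above 0 in KP22, whereas Nid1 lies below 0 in KP1 only.

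Of 17 ligands bound through RGD sequences or of the matricellular kind, 10 were tested in 16T and KP1 and 16 in KP22. In 16T 6 rose and 1 fell, in KP1 3 rose and 4 fell, and in KP22 3 rose and 3 fell. Thbs1, encoding thrombospondin, was called in each line of the authors' deposited table, at 2.18 ± 0.070 (16T), 0.95 ± 0.065 (KP1) and -3.09 ± 0.092 (KP22). Spp1, encoding osteopontin, rose in 16T (2.76 ± 0.39) and KP1 (1.47 ± 0.37) in the authors' deposited table. Npnt, encoding the Itga8 ligand nephronectin, fell in KP1 (-1.79 ± 0.12) and KP22 (-1.39 ± 0.13) and rose in 16T (1.47 ± 0.13) in the authors' deposited table, so ligand and receptor chain moved together in KP1 and apart in 16T. Fn1, encoding fibronectin, rose in KP22 (1.24 ± 0.16) and had no call in 16T (0.10 ± 0.099) or KP1 (-0.05 ± 0.097) in the authors' deposited table.

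Among 33 tested adaptors and kinases at the beta tails, 7 rose and 12 fell in 16T (all genes 20% and 25.3%) and 9 rose and 12 fell in KP1 (17.6% and 19.6%). Of 35 in KP22, 6 rose and 13 fell (19.5% and 18.8%), and the medians were -0.04, -0.08 and 0.004. The kindlin gene Fermt1 fell in 16T (-1.71 ± 0.17) and KP1 (-2.55 ± 0.20) and rose in KP22 (0.65 ± 0.14) in the authors' deposited table. Actn1, encoding an actin crosslinker, rose in 16T (1.14 ± 0.045) and KP1 (0.92 ± 0.044) in the authors' deposited table. It fell slightly in KP22 there (-0.11 ± 0.042, adjusted p = 0.0228). Paxillin (Pxn, -0.78 ± 0.086) fell in KP22 and Vasp (0.80 ± 0.058), an actin polymerization factor, rose there in the authors' deposited table. Of 7 genes listed as possible inhibitors of integrin activation, 2 rose and 1 fell in 16T, and 2 rose and 2 fell in each of the other lines. These counts give no direction for integrin activation, which was not measured. The adaptor gene Dab1 rose in all 3 lines (1.13 ± 0.11, 0.88 ± 0.099 and 0.43 ± 0.092 in the authors' deposited table). Of the tetraspanins and lateral partners, 7 rose and 2 fell of 13 in 16T, 4 rose and 4 fell of 13 in KP1, and 2 rose and 5 fell of 15 in KP22. The tetraspanin gene Cd9 rose in 16T and KP1 (0.97 ± 0.057 and 0.95 ± 0.057) and had no call in KP22 (-0.10 ± 0.057) in the authors' deposited table. Cd63 fell in KP22 (-1.20 ± 0.054) and had no call in 16T (-0.10 ± 0.047) or KP1 (0.08 ± 0.047) in the authors' deposited table. Cd81 fell in KP22 (-0.72 ± 0.051) and rose in 16T (0.50 ± 0.050) and KP1 (0.32 ± 0.049) in the authors' deposited table.

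Some markers of other cell types were abundant and others near 0. Of 9 leukocyte markers 7 had a mean below 10; Cd68 was the highest (157) and had no call, at 0.28 ± 0.25 in 16T, -0.12 ± 0.25 in KP1 and 0.03 ± 0.25 for KP22 per the authors' deposited table. The next highest leukocyte marker, Lyz2 (mean 13.4), carried no adjusted p for either knockdown line. Its log2 fold change for 16T was nevertheless 2.175 ± 0.51, which passed the authors' test against 0.5 (adjusted p = 0.0253). The KP1 value of Lyz2 was 0.44 ± 0.52, and its KP22 value of -0.20 ± 0.49 was not called (adjusted p = 0.817), per the authors' deposited table. Fibroblast markers, described beside Itgb5, had 5 of 10 with a mean below 10. Endothelial markers had 4 of 8 below 10, and Emcn and Cldn5 were listed at 0. Of all tested genes, 45.3% (16T), 37.2% (KP1) and 38.4% (KP22) were called. Of the tested endothelial markers, 1 of 4 fell in 16T, 1 rose and 1 fell of 4 in KP1, and 2 of 5 fell in KP22. Vwf was the highest of these (mean 2353) and had 0.15 ± 0.097 in 16T (no call), 1.34 ± 0.16 in KP1 and -0.75 ± 0.075 in KP22, per the authors' deposited table. Kdr (mean 495) fell in all 3 lines (-1.48 ± 0.18, -1.62 ± 0.21 and -1.76 ± 0.16), per the authors' deposited table. Levels of these markers per group are not given in the files used here, and their part in the integrin results was not tested.

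Patterns over the 3 log2 fold changes were matched for Itgb5 and Itga1, the listed subunits with the largest changes (root of summed squares 2.37 and 2.34), among 12287 genes with a mean of at least 100. Nearest to Itgb5 were Lmo7 (Euclidean distance 0.11), which encodes a protein of cell junctions, Zfpm1 (0.223) and Faim2 (0.234). Lmo7 had 1.27 ± 0.088, 0.47 ± 0.060 and -1.89 ± 0.056 in 16T, KP1 and KP22 in the authors' deposited table. Nearest to Itga1 were the axon guidance gene Slit1 (0.212), Gpr37l1 (0.284) and the ephrin receptor gene Epha5 (0.346). Slit1 had -0.71 ± 0.051, -0.91 ± 0.053 and 2.26 ± 0.053 in the authors' deposited table. With 3 values per gene and SEs of 0.38 to 0.49 for these subunits, the likeness is a description only.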

How the data were processed

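RNA-seq of 12 samples in 6 groups was used. Per the labels' protocols, RNA was taken with a Qiagen kit and libraries with an Illumina TruSeq kit; the submitters' processing notes name mm10 and the tools bedtools, TopHat, DESeq2 and DESeq, with versions not given in the sources used here. Per the file headers, the authors deposited, for each comparison, the normalized count averaged as 1 signal per gene, log2 fold changes with SEs, Wald statistics (a score), and p-values raw and adjusted, plus a second test of whether the change exceeds 0.5 in size. Adjusted p-values are empty at low means, and the largest SE is 0.521, so fold changes of low transcripts look shrunken towards 0. Features with 1 gene name were used. Library totals are unknown here, so the precision is that of the SEs (median in 16T 0.0685 for means of at least 1000, 0.455 for 10 to 100).

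With Python 3.11.15, SciPy 1.17.1 and pandas 2.3.3, 3 contrasts were computed from the deposited effects for the 15008 genes whose mean reached 10: the difference between 16T and KP1, that between KP22 and the sign-reversed knockdown mean, and the average over the lines after turning each towards higher Nfib. The lines share no samples, so variances were summed. The deposited fit appears to share a single dispersion estimate over all libraries, so the SEs of the lines are not fully separate. P-values came from the normal distribution, with Benjamini-Hochberg adjustment over all 15008. The code was tested on simulated data. Intervals are effect ± 1.96 SE, and those at low means rest on values that look shrunken. Levels per kilobase divide the mean by the summed exon intervals of the deposited list. By rule the text may name every integrin subunit, the 2 largest called rises and falls of each other list per comparison, and the 3 nearest patterns of the 2 most changed members; cell type markers and the genes joined by name with integrins were added after their values were seen. Members and lists were chosen with earlier results of these data known. Alternatives were the authors' test against 0.5, a t distribution with 6 degrees of freedom, recentring, other minimum means, joined-name exons added and leaving out 16T. Results for some genes of these lists are not reported here.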

Additional observations from a re-analysis of the deposited data

Results flagged for a closer look

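Differences between lines were called for 10 integrin subunits. Of 18 tested, 3 were called between 16T and KP1 (29.4% of all genes were) and 8 between KP22 and the reversed knockdown mean (36.7%). The knockdown effect in 16T exceeded that in KP1 by 2.36 for Itga2, by 0.24 for Itgb1 and by 1.08 for Itga2b on the log2 scale. For Itga2 the effects were 1.43 and -0.93, for Itgb1 0.37 and 0.13, and for Itga2b 0.11 and -0.97.

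With all effects turned towards higher Nfib, the KP22 effect differed from the knockdown mean by -1.001 for Itga6, -0.35 for Itgb1, -1.20 for Itgb4, 1.32 for Itga1 and 0.30 for Itga3. The same difference was -2.74 for Itga4, -1.91 for Itga8 and -1.85 for Itgal. With a t distribution the call for Itga8 was lost, and those for Itga4 and Itgal were kept. Itga6 and Itga8 had large effects in the knockdown lines (turned means 1.07 and 2.35) and none that was called in KP22 (0.07 and 0.44). Itga4 and Itgal had opposite signs in the turned comparisons (1.35 and -1.39, and 0.83 and -1.02). For Itgb1, Itgb4 and Itga1 the signs matched and the KP22 effect was larger. Nfib itself also changed more in KP22 (1.80) than in 16T (-1.08) or KP1 (-1.32). The differences were not scaled for this, and its part in them was not tested. For Itga1 the call was lost with a t distribution, after recentring and without 16T.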

How the results depend on the processing

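No paired analysis was possible because the table used here holds no values per sample, and for the same reason no replicate could be left out; tables of counts per sample, which the labels name, were not used here. Of the recomputed values of listed subunits, 193 kept their direction and side of the threshold, 16 lost a call, 3 gained one and 3 changed sign. The number of called members in 16T (5) was 1 in the authors' test against 0.5, 3 with a t distribution and 3 among genes with a mean of at least 100. In KP1 (4) it was 1 in the test against 0.5 and 2 with a t distribution. In KP22 (4) it was 2 among genes with a mean of at least 100, where Itga1 and Itgb5 are not tested. The difference between 16T and KP1 (2) was called for 1 member with a t distribution and for 1 among genes with a mean of at least 100. Recentred on the median gene, Itgb3 turned to 0.0178 in 16T and -0.0379 in KP22, and Itgam to -0.0247 in KP22. Without 16T, the difference between KP22 and the knockdown turned to -0.27 for Itga2, -0.13 for Itga9, -0.0131 for Itga11 and 0.0427 for Itgae, and the average towards higher Nfib to -0.21 for Itgal; none of these had been called. The cause was not tested. Low counts limit Itga1, Itga2, Itgb3 and Itgb5, whose SEs were 0.38 to 0.52.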

Other observations

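Some integrin exons were counted under names joined with another gene, and changes of these features cannot be given to either gene. The feature shared by Itgad, a leukocyte integrin chain, and Cox6a2, a muscle subunit of cytochrome c oxidase, had a mean of 41.0 and log2 fold changes of 2.43 ± 0.43 (16T), 3.95 ± 0.44 (KP1) and -1.34 ± 0.49 (KP22), per the authors' deposited table. Itgad under its own name had a mean of 1.55 in the authors' deposited table. Its values there were 0.16 ± 0.37 in 16T, 0.44 ± 0.38 in KP1 and 0.05 ± 0.32 in KP22. The feature shared by Itga4 and the ceramide kinase-like gene Cerkl had -0.73 ± 0.33, -1.71 ± 0.23 and -1.46 ± 0.23 in 16T, KP1 and KP22 in the authors' deposited table, close to those of Itga4 alone.

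Around Itga6, Itgb4, Itgb5 and Itga1, the median change of nearby genes was smaller than that of the subunit. A median does not show whether a single neighbour moved alike. Within 2 Mb of Itga6, 25 genes with a mean of at least 100 had medians of 0.03 in 16T and 0.01 in KP1, where Itga6 had -1.11 and -1.04. Within 2 Mb of Itgb4, 72 genes had a median of -0.02 in KP22, where Itgb4 had -1.80. Around Itgb5 36 genes had a median of 0.07 in KP22, and around Itga1 9 genes had 0.09. Medians around other called subunits were in places larger in size. Examples are Itgb1 (5 genes, -0.25 in 16T and -0.248 in KP1) and Itga2 (11 genes, -0.339 in 16T and 0.448 in KP22).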
